A study of Zea mays with 28 samples.

Results

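Wide ZmAGO4-only regions are stretches of at least 1000 bp at which the Argonaute protein ZmAGO4 was called by chromatin immunoprecipitation (ChIP-seq) in both wild-type (WT) libraries, and at which neither ZmDDM1A nor ZmDDM1B was called in any WT library. They were found by merging the peaks of 6 WT lists (2 libraries each for ZmAGO4, ZmDDM1A and ZmDDM1B) that shared at least 1 bp. Of 122155 merged regions 16072 met the rule, or 13.2%. A peak of both ZmAGO4 lists was present in 89175 regions, and 47472 of these held no DDM1 peak, or 53.2%. The members were thus selected on their width and on which lists had a peak there, so the presence of ZmAGO4, the absence of DDM1 and the width are descriptions and were not tested. Fold, pileup and background come from the same ZmAGO4 lists as the rule and are described in the same way.

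AGO4-type Argonautes carry small interfering RNAs and, in Arabidopsis, pair them with nascent non-coding transcripts so that a DNA methyltransferase is brought to the locus, a pathway called RNA-directed DNA methylation. In maize this pathway is known to act mostly on transposon-rich sequence next to genes, towards the chromosome arms. DDM1 is a SNF2-type chromatin remodeller that, in Arabidopsis, gives DNA methyltransferases access to transposons in compact chromatin, and maize has the paralogues ZmDDM1A and ZmDDM1B.

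The chromatin came from developing embryos of the inbred line W22, collected 18 days after pollination from field-grown plants. The groups with peak lists used here were zmddm1a embryos with the ZmDDM1A antibody, zmddm1b embryos with the ZmDDM1B antibody, and WT embryos with the ZmAGO4, ZmDDM1A or ZmDDM1B antibody, each with 2 libraries. The mutants have no description in the labels beyond the gene name, and each antibody was raised by the submitters. ZmAGO4 was immunoprecipitated in WT only, so no ZmAGO4 value in a mutant was analysed here. The labels do not say whether the libraries of a group came from separate plants, so the spread between them may be technical. The other 18 of the 28 libraries (inputs, IgG, H3K9me2 and mRNA) were not analysed here, and neither were the sequence and the genes at these positions. All coordinates are of B73 RefGen_v4, the assembly of another inbred line, and sequence that W22 has and B73 lacks cannot appear among the regions.

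The ZmAGO4 libraries were the deeper ones, with 31.4 and 28.5 reads per kb recovered from the lists, against 17.9 and 17.8 for ZmDDM1A and 13.8 and 12.7 for ZmDDM1B. A missing DDM1 peak therefore means that none was called at this lower depth, not that the protein was absent.

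The wide ZmAGO4-only regions made up 33.9% of the regions called for ZmAGO4 alone and 34.6% of the 46441 regions of at least 1000 bp with both ZmAGO4 lists. They covered 25.6 Mb, against 18.4 Mb for the 31400 narrower ZmAGO4-only regions and 66.0 Mb for the 30369 wide regions with a DDM1 peak. Their median width was 1386 bp and the middle 50% lay between 1164 and 1820 bp, with a longest region of 7550 bp. Wide regions with DDM1 had a median width of 1807 bp and reached 17320 bp. The width of a region with DDM1 includes the DDM1 peaks merged into it. Most members were thus not far above the limit of 1000 bp.

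Most of the wide ZmAGO4-only regions were single broad peaks rather than chains of small ones. In 14372 of them, or 89.4%, each library had exactly 1 peak, against 99.6% of narrow ZmAGO4-only regions and 87.2% of wide regions with DDM1. The peaks of replicate 1 covered a median of 97.8% of the width of a member, and those of replicate 2 covered 96.1%. The highest summits of the libraries lay a median of 36 bp apart, within 50 bp in 61.5% of members and within 200 bp in 90.3%. In the other classes the summits lay closer together. Narrow ZmAGO4-only regions had a median of 28 bp, with 69.0% within 50 bp. Wide regions with DDM1 had 27 bp and 71.9%. Both libraries therefore placed the same stretch and, in most members, nearly the same summit.

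ZmAGO4 enrichment at the wide ZmAGO4-only regions was higher than at narrow ones and lower than at wide regions with DDM1, in both libraries. The fold enrichment that the authors deposited compares the pile of fragments at the summit with a local background, in the form that MACS2 gives it. Its median over members was 8.18 in replicate 1 and 8.32 in replicate 2. At narrow ZmAGO4-only regions the medians were 4.70 and 4.79, and at wide regions with DDM1 they were 10.7 and 10.9. On the log2 scale members stood 0.80 ± 0.0017 above narrow regions and at -0.39 ± 0.0017 relative to wide regions with DDM1 (SD, n = 2 libraries). The gaps exceeded the spread between the libraries, but the classes overlapped widely: the middle 90% of members ran from 3.66 to 16.1 in replicate 1 and from 3.73 to 16.3 in replicate 2.

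The fold has 2 components, which were recovered from the deposited fold and p-value of each summit. The pileup, a whole number of fragments at the summit, had medians of 135 and 124 at members, against 64 and 58 at narrow ZmAGO4-only regions and 233 and 215 at wide regions with DDM1. The local background, expressed as a multiple of the lowest background of its library, had medians of 2.02 and 2.03 at members, 1.65 and 1.65 at narrow ZmAGO4-only regions, and 2.71 and 2.72 at wide regions with DDM1. Members thus lay between these other classes in each component. Narrow regions of both ZmAGO4 lists with a DDM1 peak had median pileups of 80 and 72, below members. Their median backgrounds of 2.28 and 2.24 were above those of members. Relative to wide regions with DDM1 the log2 difference was -0.79 ± 0.0047 for the pileup and -0.42 ± 0.00047 for the background (SD, n = 2). In this background the members sat at the library floor in 410 cases (2.55%) in replicate 1 and 437 cases (2.72%) in replicate 2, and above 10 times the floor in 7 and 5 cases.

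**Figure D1:**
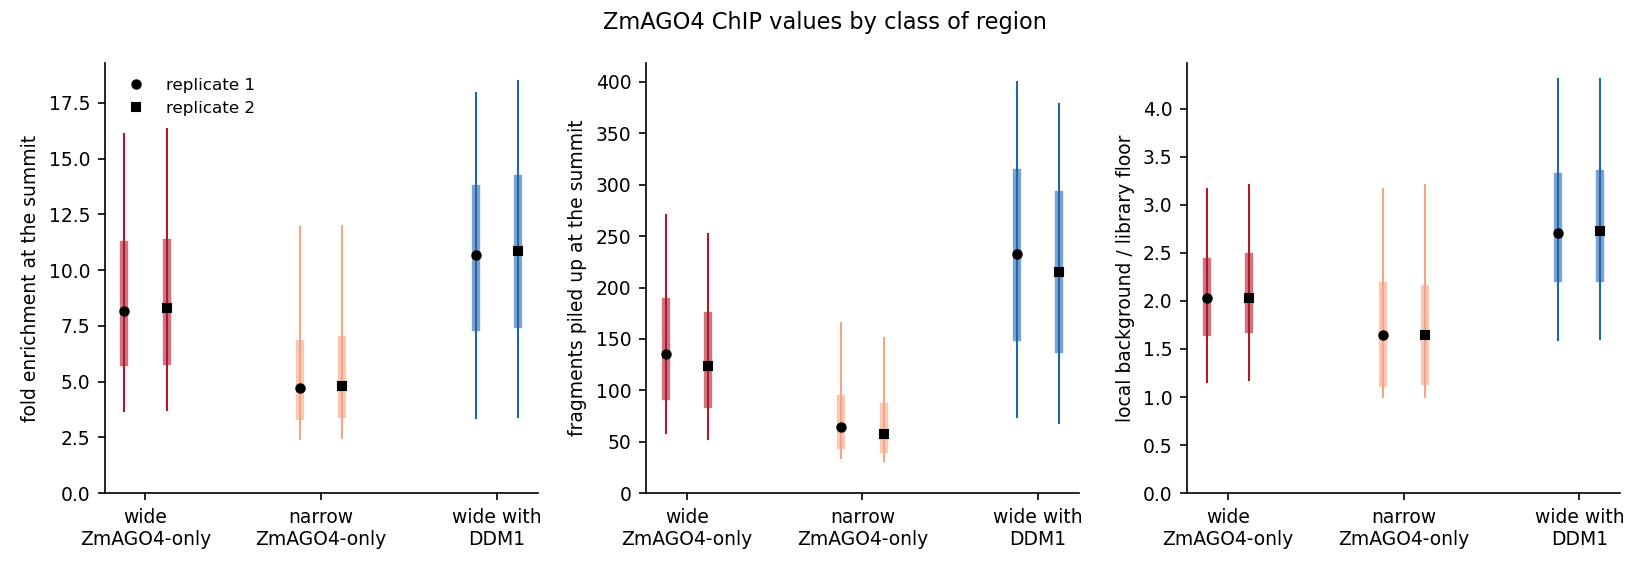
ZmAGO4 fold enrichment (left), fragments piled up at the summit (middle) and local background as a multiple of the library floor (right) for wide ZmAGO4-only regions, narrow ZmAGO4-only regions and wide regions with DDM1; points are medians of replicate 1 (circle) and replicate 2 (square), thick bars hold the middle 50% and thin bars the middle 90% of regions. In all 3 panels the medians of wide ZmAGO4-only regions (fold 8.18 and 8.32) lie between those of the other classes, and the bars overlap.

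The fold of a single member was repeatable between the libraries within limits. The libraries differed by a median of 0.22 on the log2 scale, and by up to 0.71, or 1.64-fold, in 95% of members. In 90.1% of members they were within 1.5-fold, and in 122 (0.759%) they were more than 2-fold apart. Replicate 2 was the higher one in 8356 members, or 52.0%, and its median fold was slightly higher than that of replicate 1 in all 3 classes. Across the 16072 members the log2 folds had a Pearson r of 0.856 and a Spearman rho of 0.855, which describes regions that share the same pair of libraries and are not independent. An order among members that differ by less than about 1.64-fold is therefore within the spread between libraries.

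**Figure D2:**
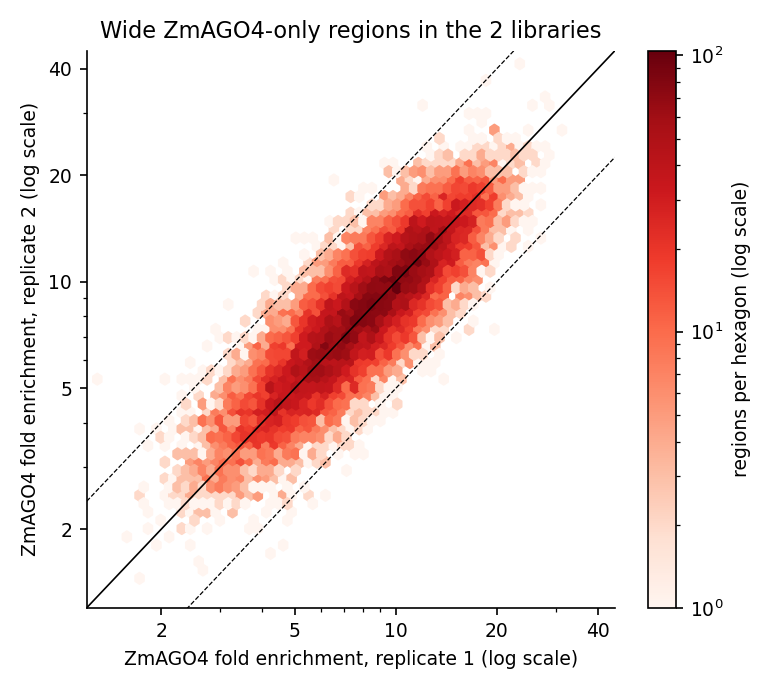
ZmAGO4 fold enrichment of the 16072 wide ZmAGO4-only regions in replicate 1 (horizontal axis) and replicate 2 (vertical axis), both on log scales, with colour giving the number of regions per hexagon, the solid line marking equal folds and the dashed lines a 2-fold difference. Most regions lie along the solid line, and 122 lie outside the dashed lines.

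The wide ZmAGO4-only regions with the highest smaller replicate fold stood at the upper end of a continuous range, and the largest fold of any member in a single library was 41.3, in replicate 2. The region at chromosome 2, 197295984 to 197298595 (2612 bp), had folds of 29.5 and 31.4, from pileups of 405 (95% Poisson interval 367 to 446) and 414 (375 to 456) over backgrounds of 12.8 and 12.2. Its summits lay 16 bp apart, and the nearest DDM1 peak was 29706 bp away. On chromosome 1 the region at 300413193 to 300414321 (1129 bp) had folds of 28.2 and 33.6, from pileups of 330 (295 to 368) and 319 (285 to 356). Another, at chromosome 1, 205568613 to 205569720 (1108 bp), had folds of 31.3 and 26.2 with its summits at the same base, and a DDM1 peak was called 739 bp away.

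The other 7 of the 10 highest were much alike in their folds. They lay on chromosome 5 at 154791608 to 154792853 (25.7 and 30.8), on chromosome 1 at 98887343 to 98888403 (25.2 and 26.5), 63936834 to 63939668 (28.3 and 24.6) and 237905494 to 237907298 (25.3 and 24.6), on chromosome 4 at 179107947 to 179109698 (24.8 and 23.9), on chromosome 3 at 233332309 to 233333378 (26.3 and 23.4) and on chromosome 7 at 3981663 to 3982680 (26.1 and 23.3). Over these 10 regions the smaller of the replicate folds ran from 23.3 to 29.5, a 1.27-fold range that is within the spread between libraries, so neither their order nor their place ahead of the members just below them is established. All 10 had a low local background, at most 1.77 times the library floor, and summits at most 51 bp apart. The background is the divisor of the fold by which they were picked, so a low one is favoured by the choice. Of the 10, 5 had a DDM1 peak within 1 kb, against 21.1% of all members, and the one on chromosome 7 had none within 81588 bp. These 10 were picked by their fold, and whether high fold goes with distance from DDM1 was not tested on them.

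The widest members had moderate folds. The longest, on chromosome 9 at 119244524 to 119252073 (7550 bp), held 2 peaks in each library and had folds of 11.5 and 13.3 at its highest summits. The next, on chromosome 5 at 35055517 to 35062545 (7029 bp), was 1 peak in replicate 1 and 3 peaks in replicate 2, with folds of 8.61 and 11.8. The remaining 3 of the 5 widest were 6053 to 6572 bp long, and the highest folds among them, 15.2 and 20.7, were at chromosome 1, 87841335 to 87847906. In the longest the peaks of the libraries broke at different places, and in the next replicate 2 alone broke, while the outer ends nearly coincided in both.

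**Figure D3:**
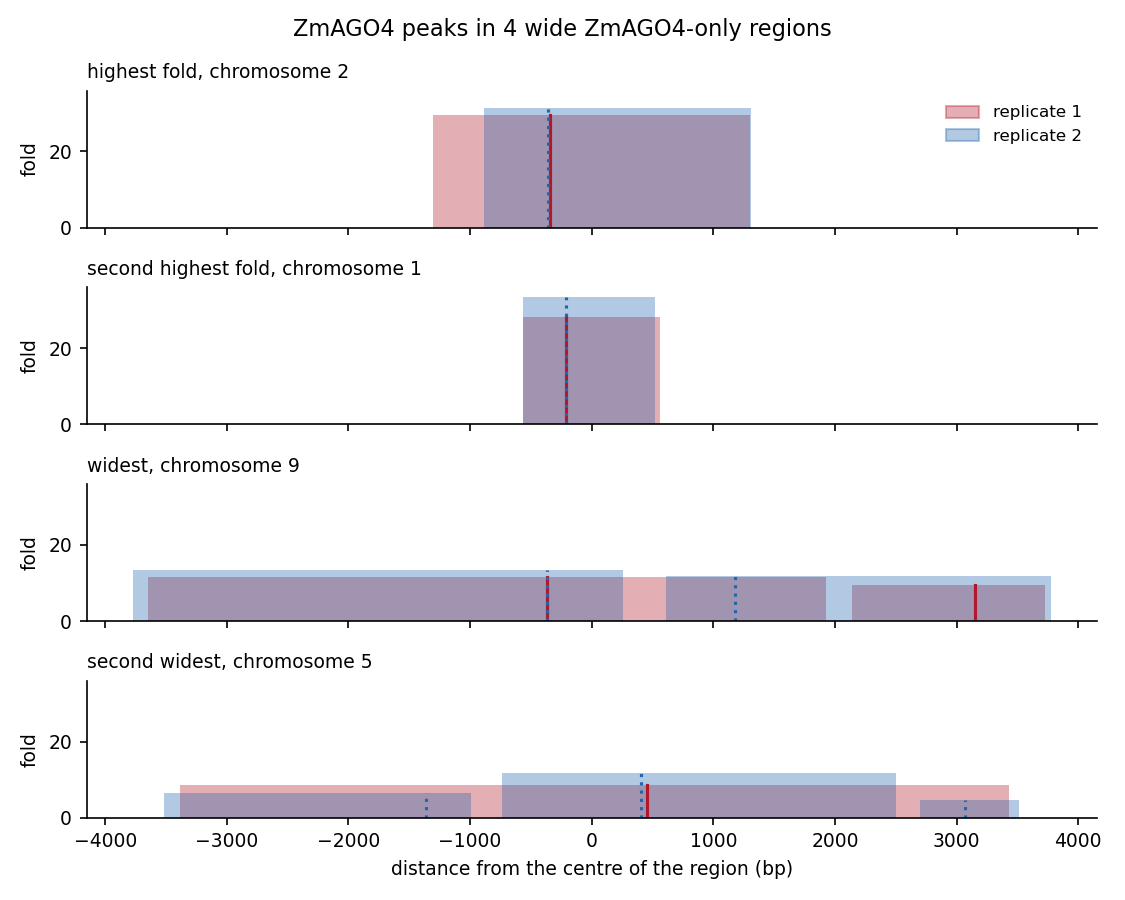
ZmAGO4 peaks of replicate 1 (red, solid summit line) and replicate 2 (blue, dotted summit line) in the 2 wide ZmAGO4-only regions of highest fold and the 2 widest ones, drawn by distance from the centre of the region in bp, with the height of each box giving the fold at the summit of the peak and not a coverage profile. In the upper panels 1 peak per library has nearly the same summit in both, in the third panel the peaks of the libraries break at different places, and in the lowest replicate 2 alone breaks.

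The weakest of the wide ZmAGO4-only regions mostly had high backgrounds. The background is also the divisor of the fold by which they were picked. On chromosome 6 the region at 161989212 to 161990914 had folds of 1.71 and 1.45, from pileups of 310 and 266 over backgrounds of 181 and 183. Its pileups were thus above the median of members while its folds were near the bottom. The region at chromosome 9, 70156202 to 70157914, had folds of 1.29 and 5.28 at summits 869 bp apart, with backgrounds of 19.7 and 1.58 times the floor, and the libraries did not repeat each other there. The other 3 of the 5 lowest, on chromosomes 1 and 8, had folds between 1.56 and 2.70. Among them, the region at chromosome 1, 105185294 to 105186431, had low pileups of 50 and 47. Its backgrounds were 2.44 and 4.06 times the floor. Folds under 3 were rare, at 294 members (1.83%) in replicate 1 and 266 (1.66%) in replicate 2.

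The limit of 1000 bp cut through a continuous range. The 1333 members from 1000 to below 1050 bp had median folds of 6.73 and 6.73, and the 1388 ZmAGO4-only regions from 950 to below 1000 bp had 6.50 and 6.71. Just at the limit, the regions at chromosome 4, 168873789 to 168874788, chromosome 6, 107625361 to 107626360, and chromosome 2, 83733555 to 83734554, had folds of 9.14 and 9.46, 11.5 and 8.47, and 7.57 and 7.82. Just under it, narrower by 1 bp, the regions at chromosome 10, 27221099 to 27222097, chromosome 4, 128429267 to 128430265, and chromosome 6, 133821124 to 133822122, had folds of 20.2 and 23.0, 19.9 and 32.5, and 17.3 and 15.9. Among regions of equal width the ones of highest fold are named, so these 6 stand above the median of their width. The median folds show no step at the limit.

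Among all wide regions with both ZmAGO4 lists, the share without a DDM1 peak was smaller the wider the region. With the upper limit of each range left out, it was 53.9% at 1000 to 1250 bp (5753 members), 41.7% at 1250 to 1500 bp, 32.2% at 1500 to 2000 bp, 24.6% at 2000 to 3000 bp, 11.8% at 3000 to 5000 bp and 3.29% from 5000 bp upwards (33 members). A wider region offers more bases for a DDM1 peak to overlap. Width was also measured over all merged peaks, so a DDM1 peak can lengthen or join the regions that it overlaps. Whether either of these has a part in the decline was not tested. At like width the difference in fold was smaller than over all widths: members of 1000 to 1250 bp had median folds of 7.07 and 7.12, against 7.69 and 7.73 at regions with DDM1 of that width. The gap was larger in the next classes, with 7.88 and 7.94 against 9.08 and 9.23 at 1250 to 1500 bp, 8.62 and 8.77 against 10.2 and 10.4 at 1500 to 2000 bp, and 9.95 and 10.1 against 11.6 and 11.8 at 2000 to 3000 bp. At 3000 to 5000 bp members had 10.9 and 10.8, against 12.9 and 13.4, and from 5000 bp upwards 11.8 and 13.0, against 13.9 and 14.4. The local background differed at every width, at 1.97 to 2.22 times the floor in members and 2.65 to 3.02 in regions with DDM1.

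The DDM1-free share also differed with the ZmAGO4 fold and with the local background. Among the 20% of wide regions with the lowest fold it was 45.7% by replicate 1 and 46.0% by replicate 2, and among the 20% with the highest fold it was 19.4% and 18.4%. By local background the range was larger, at 64.6% and 64.5% in the lowest 20% and 8.60% and 8.84% in the highest 20%. Inside each 20% step of fold, the share was compared at the lowest, the middle and the highest 20% of background, and it was smaller at each higher one. At like fold a higher background goes with a higher ZmAGO4 pileup, since the fold is made from both. These steps therefore do not separate the background from the pileup. Among wide regions in the lowest 20% by fold, the share was 73.5% and 73.7% at the lowest background and 16.3% and 16.3% at the highest. In the highest 20% by fold it was 48.4% and 47.1% at the lowest background, while at the highest 4 of 902 and 4 of 972 regions were DDM1-free, or 0.443% and 0.412%.

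The same order was seen at like width. At 1000 to 1250 bp the share was 73.9% and 73.7% at the lowest background, against 18.4% and 19.0% at the highest. From 2000 bp upwards it was 49.1% and 49.2%, against 3.90% and 3.69%. The background was recovered from the ZmAGO4 lists, not from the DDM1 lists, and whether it takes part in which regions had a DDM1 peak called was not tested.

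**Figure D4:**
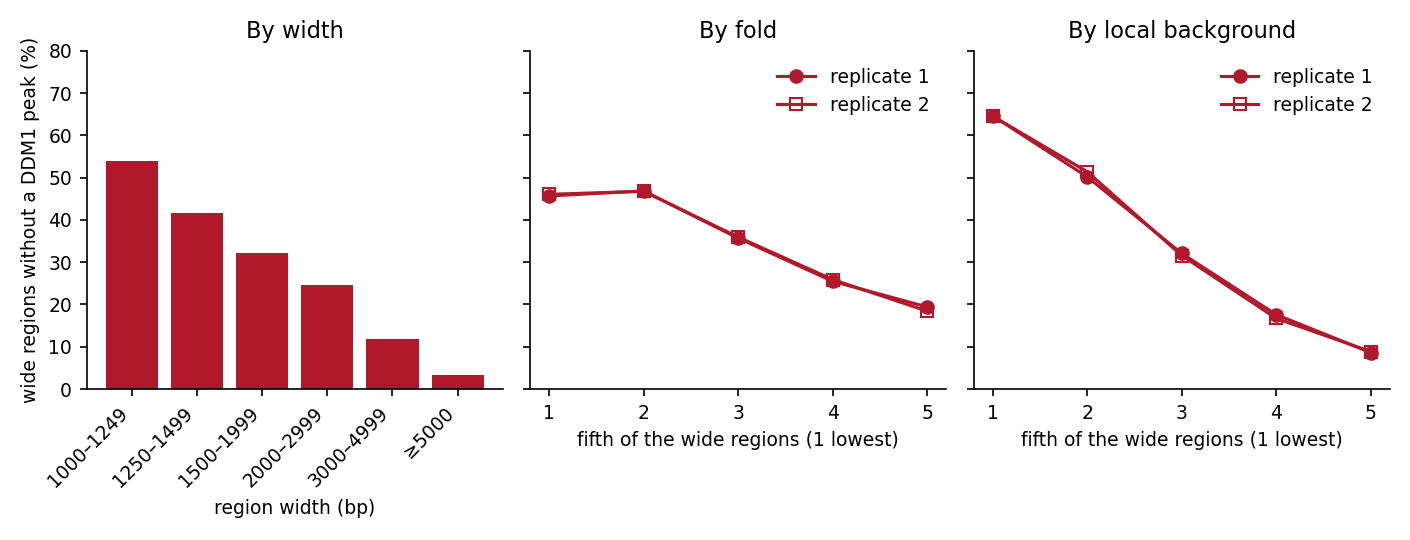
Share of wide regions with both ZmAGO4 lists that had no DDM1 peak (percent), by region width in bp (bars, left), by 20% steps of ZmAGO4 fold from lowest to highest (middle) and by 20% steps of local background (right), with filled circles for replicate 1 and open squares for replicate 2. The share is 53.9% in the narrowest and 3.29% in the widest class, and by background it runs from 64.6% to 8.60% in replicate 1.

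Although no DDM1 peak overlapped them, many wide ZmAGO4-only regions had one close by. The median distance to the nearest WT DDM1 peak was 4520.5 bp, with 21.1% of members within 1 kb, 66.4% within 10 kb and 93.3% within 50 kb. Narrow ZmAGO4-only regions were much the same, with a median of 4386.5 bp, 21.9% within 1 kb and 66.1% within 10 kb. The nearest peak was one of ZmDDM1B for 63.7% of members and of ZmDDM1A for 35.9%, and the ZmDDM1B lists are the longer ones. Proximity to DDM1 therefore did not separate the wide from the narrow regions.

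The members' ZmAGO4 fold differed little with distance from DDM1. Median folds were 8.51 and 8.66 within 1 kb (3399 members), 8.05 and 8.18 at 1 to 10 kb, 8.18 and 8.31 at 10 to 50 kb, and 8.06 and 8.30 beyond 50 kb (1074 members, 6.68%). The farthest member, at chromosome 6, 104418877 to 104420029, had folds of 7.30 and 8.25 and lay 420630 bp from any DDM1 peak. Of the next 4, the region at chromosome 2, 102761892 to 102763459, 269763 bp away, had folds of 15.8 and 19.3, and the others, on chromosomes 10, 7 and 2, had folds between 5.81 and 9.22. Regions far from DDM1 thus included both ordinary and high folds.

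The wide ZmAGO4-only regions were spread over all 10 chromosomes at 7.13 to 8.08 per Mb, the lowest on chromosome 3 and the highest on chromosome 8. The outer 40% of the chromosomes (the first and last 20% of the length covered by peaks) held 7833 members, or 48.7% (95% interval 48.0 to 49.5), against 51.0% (50.4 to 51.6) of narrow ZmAGO4-only regions and 51.2% (50.7 to 51.8) of wide regions with DDM1. The share was above 40% on 10 of 10 chromosomes, from 42.1% on chromosome 6 to 52.4% on chromosome 7. The share of members was below that of narrow regions on 7 chromosomes and below that of wide regions with DDM1 on 8, so neither small difference held on every chromosome. The exact Clopper-Pearson intervals reflect counting error alone, and adjacent regions may depend on each other.

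The outer share of members was smaller the farther they lay from DDM1 beyond 10 kb. It was 51.6% within 1 kb of a DDM1 peak, 53.3% at 1 to 10 kb, 44.5% at 10 to 50 kb and 25.5% beyond 50 kb. For narrow ZmAGO4-only regions at the same distances it was 55.3%, 55.9%, 45.1% and 30.0%. Whether the density of DDM1 peaks along the chromosomes has a part in this was not tested.

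**Figure D5:**
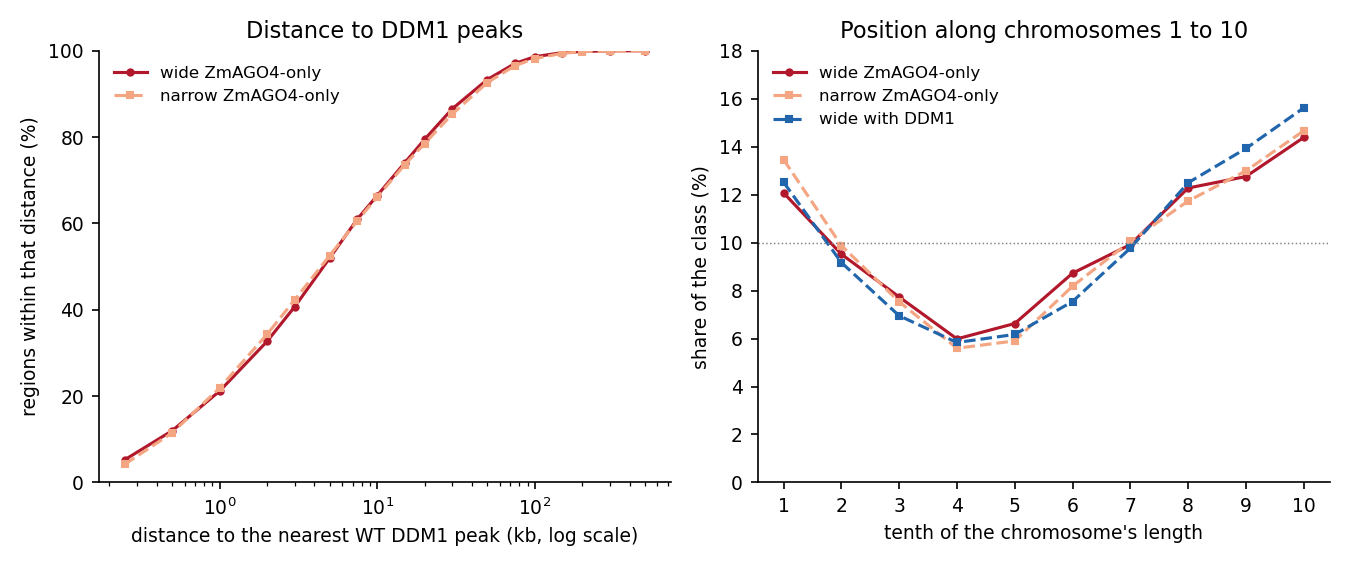
Left, percent of wide and narrow ZmAGO4-only regions with a WT DDM1 peak within the distance on the horizontal axis (kb, log scale); right, percent of each class in each 10% step of the chromosome length, pooled over 10 chromosomes, with a dotted line at the 10% of an even spread. The distance curves of wide and narrow regions nearly coincide (66.4% and 66.1% within 10 kb), and wide ZmAGO4-only regions range from 5.99% in a middle step to 14.4% in the last.

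Almost none of the wide ZmAGO4-only regions had a peak of the DDM1 antibodies in embryos mutant for the antigen. In zmddm1a either library had a peak in 2 of the 16072 members, or 0.0124% (95% interval 0.00151 to 0.0449), against 1.06% of all merged regions and 2.49% of wide regions with DDM1. In zmddm1b the count was also 2, or 0.0124%, against 1.29% of all merged regions and 2.54% of wide regions with DDM1. No member had a peak of zmddm1b replicate 2, which allows a share of up to 0.0187% by 3 counts of the total, or 0.0229% as the upper end of the exact 95% interval. Narrow ZmAGO4-only regions had a peak of any of the 4 mutant libraries in 10 cases, or 0.0318%, against 4 members, or 0.0249%. The mutant lists did not enter the rule, but the rule removed every region at which the same antibodies gave a peak in WT, so the share is not independent of the rule.

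The 4 members with a mutant peak had ordinary ZmAGO4 folds. One, on chromosome 4 at 3835451 to 3837952, had peaks in both zmddm1a libraries, with ZmDDM1A folds of 4.13 and 4.89 and ZmAGO4 folds in WT of 8.78 and 10.2. The others had a peak in a single mutant library and were singled out after their values were seen. They lay on chromosome 1 at 5307082 to 5310312 (zmddm1a replicate 1, fold 3.07), on chromosome 1 at 259605329 to 259606684 (zmddm1b replicate 1, fold 5.39) and on chromosome 4 at 60224008 to 60226302 (zmddm1b replicate 1, fold 6.24).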

How the data were processed

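The deposited lists give, for each peak of 1 library, its start and end, a fold enrichment (a ratio at the summit), −log10 p-value and −log10 q-value, all made by the authors; no list pooled replicates. Per the submitters' processing notes the build was B73 RefGen_v4 and the software comprised MACS2 2.1.2, Bowtie2, Trim Galore and Picard, besides TopHat2 2.0.10 and Cufflinks 2.2.1, with no role or order stated. For peak calling, the threshold, scaling and control were not given in the sources used here. The smallest −log10 q deposited in the lists was 2.00 to 2.12.

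Peaks were merged with Python 3.11.15, numpy 2.4.6 and pandas 2.3.3, and intervals were made with scipy 1.17.1. Where a region held several peaks of a library, the one of highest fold was used. Background and pileup at a summit were solved together from its fold, (pileup + 1) over (background + 1), and its p-value, read as a Poisson tail. That form is assumed from MACS2. A whole-number pileup matched 99.997% and 99.998% of ZmAGO4 summits within 0.001 on the −log10 scale. Reads per kb are the lowest background of a list divided by its smallest peak width, used as a relative estimate of depth. A wide region with DDM1 holds a peak of both ZmAGO4 lists and of at least 1 DDM1 list. Chromosome lengths were taken as the largest end in any list, and coordinates are counted from 1. Intervals cover counting error only. The steps were checked on simulated data.

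The regions named are the 10 of highest smaller replicate fold, the 5 widest, the 5 of lowest smaller fold, those with peaks in both libraries of a mutant, the 5 farthest from DDM1, and the 3 on either side of the width limit. The members, the classes and these rules were chosen with earlier results of these data known. No test was run, since the rule used the measured peaks and each group has 2 libraries. Alternatives changed thresholds on q, fold and width, the overlap rule, the measure, the zones and the libraries used.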

Additional observations from a re-analysis of the deposited data

How the results depend on the processing

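For 9 results the values were recomputed under 85 alternatives in all. The value was classed as moved in 50 of these and as the same in 35. A difference between classes counted as the same only within the SD of the libraries. A share or distance had to stay within its 95% interval, and the number of regions within a fixed ratio. That SD was very small, so even slight changes of a difference counted as moved. The tally thus mixes unlike rules and does not measure how firm the results are. No difference between classes changed its sign, while counts, shares and distances have no sign that could change. The number of regions, 16072, ran from 6608 with a limit of 1500 bp to 22263 with a limit below 1000 bp. It was 21183 with fold of at least 4 and 21316 when DDM1 had to be called in both replicates. It was 12673 with no DDM1 peak within 1000 bp, and 14172 to 17611 with 1 library left out. The log2 fold difference from wide regions with DDM1 (-0.39) was -0.36 with −log10 q of at least 5, -0.30 with fold of at least 4, -0.32 when DDM1 had to be called in both replicates, -0.37 with no DDM1 peak within 1000 bp, -0.37 with mean folds, -1.05 on −log10 q and -0.19 at 1000 to 1500 bp in both classes. With 1 library left out it was -0.38 to -0.34. The difference from narrow regions (0.80) under the same settings was 0.78, 0.54, 0.87, 0.78, 0.78 and 1.77 on −log10 q, and 0.81 to 0.96 with 1 library left out. The share in the outer 40% of chromosomes was 48.0% to 48.9% under the alternatives that kept these zones. In the first and last 10% of chromosomes it was 26.5%. Those zones span a smaller part of the length, so this value is not comparable with the others. The median distance to DDM1 was 5622 bp with the q limit, 8997 bp with the fold limit, 8412.5 bp with both replicates required, and 4187 to 5710 bp with 1 library left out. The share of members with a mutant peak was 0.0991% with the fold limit and 0.00622% when both libraries of a mutant had to have one. The wide share of ZmAGO4-only regions (33.9%) ran from 26.1% without ZmAGO4 replicate 1 to 38.3% when DDM1 had to be called in both replicates. Under the same settings the median gap between neighbouring members (27296 bp) was 32138.5 bp and 17812.5 bp, its extremes. The log2 background difference from wide regions with DDM1 (-0.42) was -0.45 to -0.43. The causes of these shifts were not tested. No paired analysis was possible because no result comes from a test, while the differences between classes were taken within each library. The lower estimated depth of the DDM1 libraries limits what absence of a DDM1 peak can show. Base composition and mappability were not analysed here.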

Other observations

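Wide ZmAGO4-only regions lay farther from each other than narrow ZmAGO4-only regions or wide regions with DDM1 did. Both of those classes are more numerous, and the part of their number in this was not tested. The median gap to the nearest other member was 27296 bp, and 5128 members (31.9%) had one within 10 kb. For the more numerous narrow ZmAGO4-only regions the median gap was 8553.5 bp, and for wide regions with DDM1 it was 8569 bp. The nearest merged region of any kind was only a median of 990 bp away, and for 16.8% of members it was another member, while members make up 13.2% of all regions. The other classes showed a like excess of their own kind. It was 31.8% against 25.7% of all regions for narrow ZmAGO4-only regions, and 28.8% against 24.9% for wide regions with DDM1.

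Some members stood in runs with no other merged region between them. Such runs held 5071 members (31.6%): 1865 pairs, 325 runs of 3, 74 of 4, 9 of 5, 3 of 6 and 1 of 7. Runs of the other classes are not given here, so this share is not set against theirs. The run of 7 spanned 90568 bp on chromosome 8, from 173110508 to 173201075. A compact run of 5, singled out after its values were seen, lay within 8986 bp on chromosome 3, from 176794046 to 176803031. The longest stretches without a member were on chromosome 6, from 9858319 to 14532838 (4674518 bp), and chromosome 5, from 105174297 to 108618758 (3444460 bp).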
